A study of Mus musculus with 12 samples.

Results

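The ADAM and ADAMTS genes encode a family of metalloproteases that act at the cell surface and in the extracellular matrix. H3K27ac, the acetylated form of lysine 27 of histone H3 that marks active promoters and enhancers, was examined at these genes in 4T1 cells, a metastatic mouse mammary carcinoma line of wild-type genotype. Members were chosen by name alone, as every gene symbol in the deposited table that reads Adam followed by a number, with an optional letter, or that begins with Adamts. This rule found 43 of 22264 gene symbols, which carried 213 of the 126464 chromatin intervals of the table. They were 23 ADAM genes, 15 ADAMTS genes and 5 ADAMTS-like genes.

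Chromatin immunoprecipitation followed by sequencing (ChIP-seq) was performed after 48 h of treatment with vehicle, with acetate alone, or with etomoxir or etomoxir + SB204990, each of the latter with and without acetate, which makes 6 treatments. Acetate was used at 5 mM, and both inhibitors at 50 µM. Acetate can be turned into acetyl-CoA, the donor of histone acetyl groups, whereas etomoxir blocks the entry of long-chain fatty acids into mitochondria and SB204990 blocks ATP citrate lyase, which releases acetyl-CoA from citrate. Each treatment had 2 libraries, called set 1 and set 2 here after a shared suffix whose meaning the labels do not give, so there were 12 libraries of 1 cell line. Nothing states that the sets were separate cultures, so the p-values measure the spread between these libraries, which may be technical.

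A value in the table is the number of reads in an interval multiplied by 1 factor per library, which the authors derived from human chromatin added at 7.5% as a spike-in. It is called the scaled signal here, in scaled reads. Within set 1 the library with etomoxir + acetate and within set 2 the library with etomoxir + SB204990 had a factor of 1. The factors of the sets may therefore not share 1 scale, and levels are safest compared within a set. The intervals of a gene are those to which the annotation gave its name as the nearest gene, and their scaled signal was added up to a gene sum. A nearest gene need not be the gene that an interval regulates. Between 7179165 and 16676442 reads per library fell in intervals, and 14480 to 35840 of them fell in intervals of the 43 genes. The etomoxir + SB204990 library of set 2 had the fewest reads and stood apart, with 2.77% of its reads in the weakest quartile of the intervals against 0.990 to 1.41% in the other 11 libraries. The main counts of called genes are also given without it. Among epithelial markers Krt8 (mean gene sum 4048), Cdh1 (2771), Epcam (975) and Krt19 (792) carried signal, whereas Krt7 and Krt18 had no interval of that name. Of the markers of other cell types, the muscle genes Myod1 and Myog had none, Des had a sum of 4.31 and Cd3e of 15.5, but Pecam1 (733) and Csf1r (504) were not low. Their part in the results was not tested.

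ADAM proteins are anchored in the membrane, and the catalytically active ones cut the outer parts off growth factors, cytokines, adhesion molecules and Notch receptors, a step called shedding. ADAMTS proteins are secreted and cut matrix components such as aggrecan, versican, procollagens and von Willebrand factor, while ADAMTS-like proteins share the accessory domains but have no protease domain. Many ADAM genes are used in the testis, where their products serve sperm maturation and fertilisation, and in mammary tumours shedding of epidermal growth factor receptor ligands is among the best known ADAM activities.

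The promoters of these genes fell into CpG-rich and CpG-poor sequences, and 4 of them are shown, namely a pair of CpG-rich promoters with an interval and, without an interval, 1 CpG-rich and 1 CpG-poor promoter. No CpG-poor promoter with an interval is printed, an example being that of Adam1a with 4 CpG dinucleotides. The RefSeq promoter table (GRCm38.p6) held 34 promoters of 32 ADAM and ADAMTS genes, each as 300 bases, and the 250 bases before the start are printed here 5′ to 3′ on the gene's strand with each CpG dinucleotide in capitals. Adam17 (chr12:21373633-21373882, minus strand) and Adamts14 (chr10:61273420-61273669, minus strand) lay under an H3K27ac interval of their own. Adamts20 (chr15:94404351-94404600, minus strand) and Adam29 (chr8:55906965-55907214, minus strand) lay under none.
Adam17: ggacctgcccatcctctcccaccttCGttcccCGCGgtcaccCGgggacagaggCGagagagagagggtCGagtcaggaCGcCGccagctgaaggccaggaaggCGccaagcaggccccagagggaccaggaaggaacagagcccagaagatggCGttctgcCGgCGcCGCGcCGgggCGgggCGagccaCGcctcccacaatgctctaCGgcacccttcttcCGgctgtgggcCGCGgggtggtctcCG
Adamts14: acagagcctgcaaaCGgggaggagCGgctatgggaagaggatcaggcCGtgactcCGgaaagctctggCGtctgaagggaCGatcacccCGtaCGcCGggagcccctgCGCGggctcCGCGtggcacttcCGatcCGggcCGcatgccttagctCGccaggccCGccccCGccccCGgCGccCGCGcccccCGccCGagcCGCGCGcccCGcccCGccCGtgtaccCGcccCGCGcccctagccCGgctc
Adamts20: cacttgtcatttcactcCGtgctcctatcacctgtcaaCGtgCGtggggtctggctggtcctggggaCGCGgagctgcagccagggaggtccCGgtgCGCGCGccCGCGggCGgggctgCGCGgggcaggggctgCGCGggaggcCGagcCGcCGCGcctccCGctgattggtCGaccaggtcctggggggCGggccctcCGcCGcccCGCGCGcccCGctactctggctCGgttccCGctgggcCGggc
Adam29: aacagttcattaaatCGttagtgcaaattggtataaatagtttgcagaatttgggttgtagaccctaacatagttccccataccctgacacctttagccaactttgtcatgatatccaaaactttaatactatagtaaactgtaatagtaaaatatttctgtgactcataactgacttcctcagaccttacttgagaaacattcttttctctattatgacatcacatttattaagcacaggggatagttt
These windows held 23 CpG dinucleotides for Adam17, 35 for Adamts14, 32 for Adamts20 and 1 for Adam29. Counted over 300 bases, the 14 promoters that overlapped an interval had a median of 24.5 CpG (range 4 to 46), and the 20 that overlapped none had a median of 2 (range 0 to 41). Over all 32851 promoters of the table the medians were 19 for the 15321 with an interval and 4 for the 17530 without. The division was not complete at the ADAMTS genes. Adamts2, Adamts3 and Adamts20 had 41 CpG each, and Adam23 had 31, without an interval on the promoter. At the other end, promoters with as few as 4 CpG overlapped an interval.

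**Figure D1:**
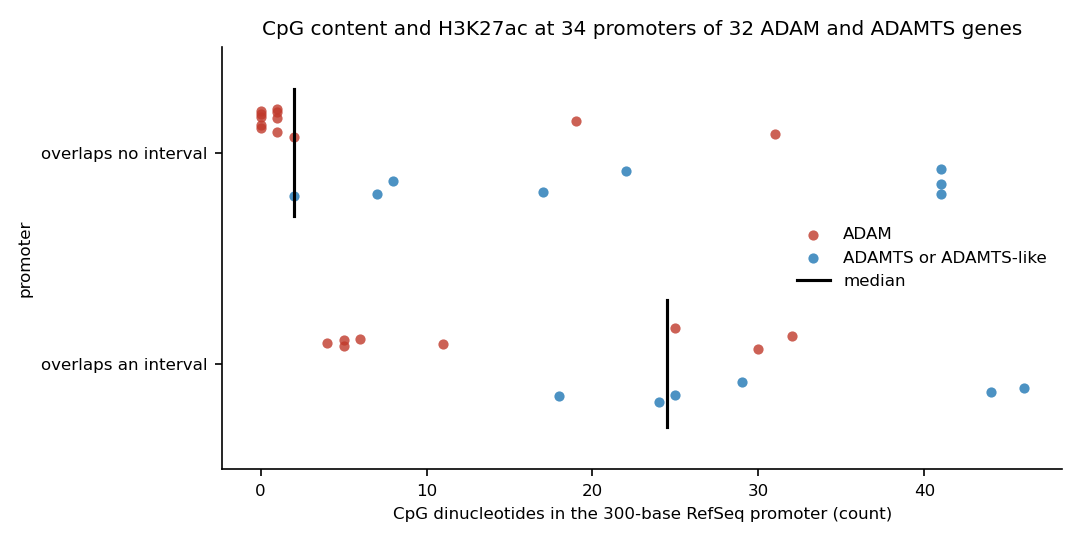
Number of CpG dinucleotides (x axis) in each of 34 RefSeq promoters of 300 bases, split by whether the promoter overlapped an H3K27ac interval (rows), with red points for ADAM genes, blue points for ADAMTS and ADAMTS-like genes and a bar at the median. Promoters with an interval centre on 24.5 CpG and those without on 2, but 3 ADAMTS promoters without an interval reach 41.

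The GC box, spelled GGGCGG and searched on both strands, was present in 11 of the 14 promoters with an interval (78.6%) and in 6 of the 20 without (30.0%), against 57.1% and 16.9% over all promoters of those kinds. This motif holds a CpG itself, so its count is tied to the CpG count. Adam17, Adamts14 and Adamts20 each held it. The AP-1 motif, spelled TGANTCA, was present in 1 of the 14 and 4 of the 20 promoters, against 6.31% and 9.12% over all promoters with and without an interval. The TATA box, spelled TATAAA, was present in 1 of the 14 and 5 of the 20, against 7.70% and 18.8%. Adam29 held both of these motifs.

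In all, the 43 genes had as much H3K27ac per length as the rest of the table, with 32.4 scaled reads per kb of interval against 32.1 over all intervals. A gene sum was, however, lower at the median, 111 scaled reads against 161 over all symbols. The signal was uneven, since the 5 highest genes held 57.3% and the 8 highest held 71.6% of it. At the low end 3 genes had a mean sum under 10 and were not tested, namely Adamtsl1 (8.14), which also reached 40 in the etomoxir + SB204990 library of set 2 and no more than 9.06 elsewhere, Adam4 (6.39) and Adam25 (3.75). The other 40 passed this limit, which uses the mean over all 12 libraries.

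**Figure D2:**
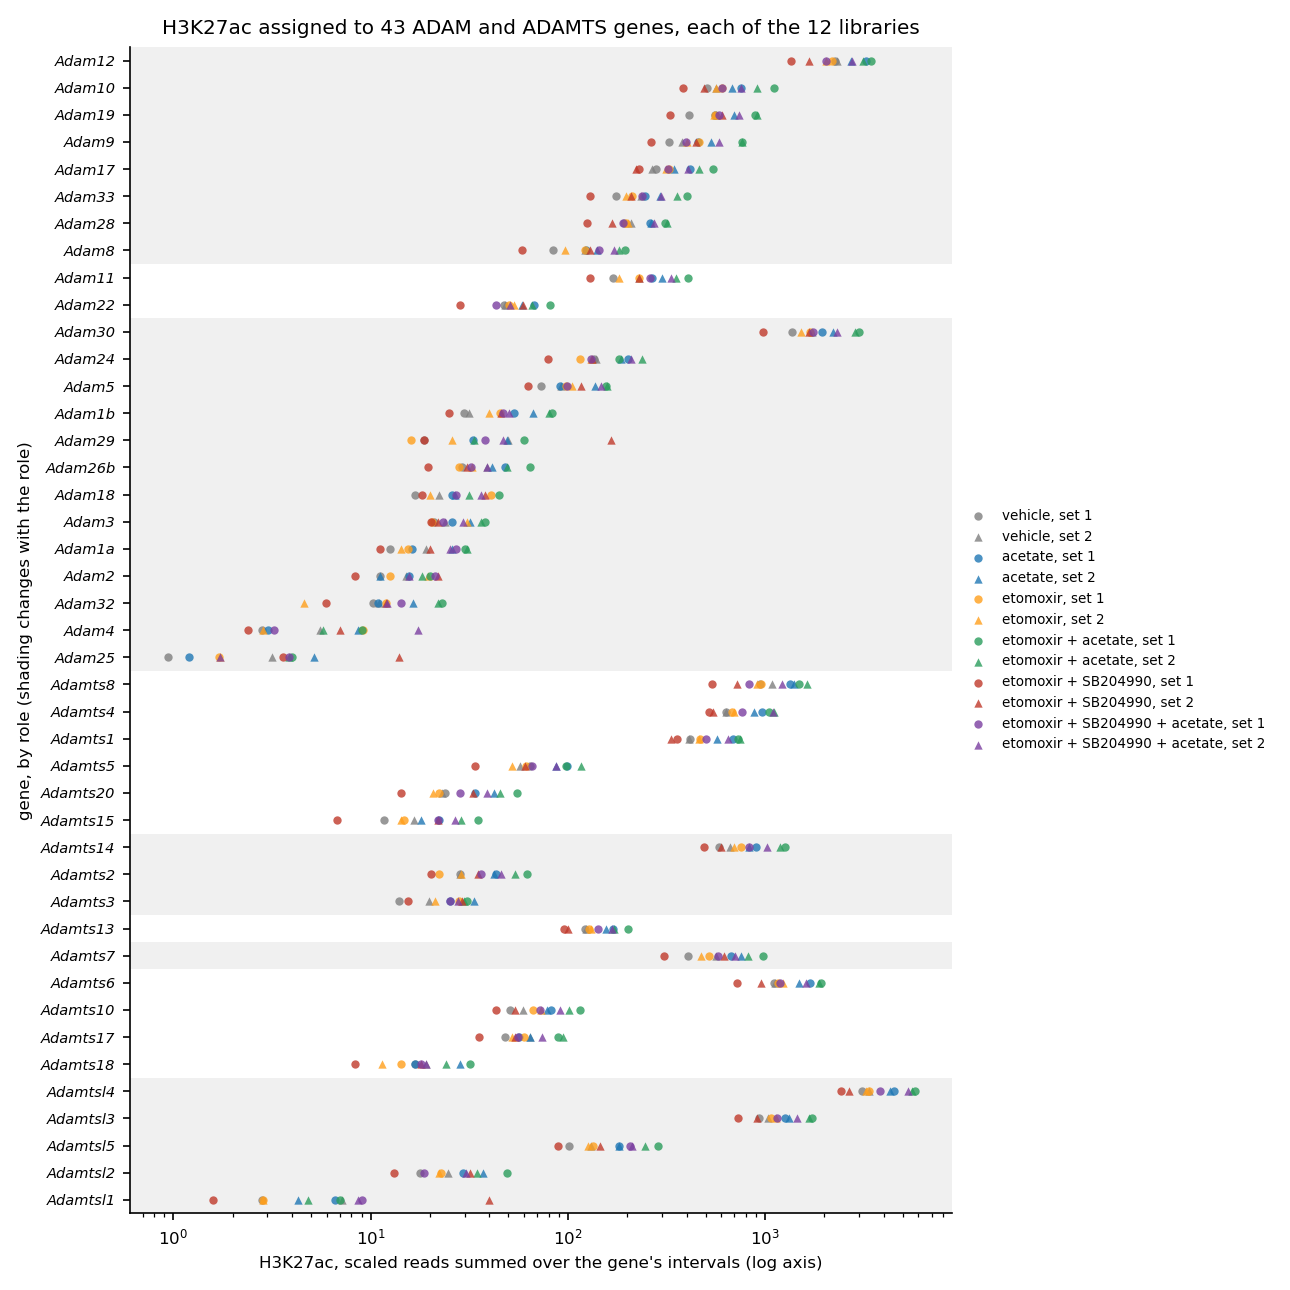
H3K27ac gene sum (x axis, scaled reads, log axis) of the 43 genes (rows, grouped by role with changing shading) in each of the 12 libraries, with colour for the treatment and circles and triangles for set 1 and set 2. Sums run from under 10 for Adam4, Adam25 and Adamtsl1 to means of 3950 for Adamtsl4 and 2434 for Adam12, and the green etomoxir + acetate points lie to the right in most rows.

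By role, the membrane sheddases (8 genes with an interval) held 27.2% of the signal of the family and the ADAMTS-like genes (5) held 28.3%. The proteoglycanases (6 genes, which cut aggrecan and versican) held 13.4%, the sperm and testis ADAMs (13 genes) 12.9%, the other ADAMTS genes 7.90%, the procollagen N-proteinases 4.65%, Adamts7, a protease of cartilage oligomeric matrix protein, 3.26%, the adhesive ADAMs 1.65% and Adamts13, the von Willebrand factor protease, 0.753%. Per kb the ADAMTS-like genes were highest at 45.3 scaled reads and the sperm and testis ADAMs were among the lowest at 22.8. The share of the sperm and testis group came to 78.8% from Adam30, whose sum of 1919 compares with 157 for Adam24, the next of that group.

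Adam12, a sheddase linked to growth factor release, had the highest sum among the membrane sheddases (mean 2434). Its sums, given here and below for set 1 and then set 2, were 2274 and 2328 with vehicle, 3239 and 2726 with acetate, 2179.6 and 2046 with etomoxir, 3447 and 3148 with etomoxir + acetate, 1348 and 1664 with etomoxir + SB204990 and 2034 and 2769 with etomoxir + SB204990 + acetate. The 2 etomoxir + SB204990 libraries were the lowest, and the 2 etomoxir + acetate libraries were among the 3 highest. The largest interval assigned to it, chr7:134217877-134245434, covered the start of the gene over 27558 bp and held 1359 scaled reads. A neighbouring interval of 18871 bp, chr7:134250726-134269596, held 969 and lay in D7Ertd443e, a separate coding gene. Inside the gene body of Adam12 the table had 64 intervals, of which only 1 carried its name, and 40 with 1351 scaled reads were assigned to the nearer non-coding gene A130023I24Rik.

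Adam10, the sheddase of Notch receptors and E-cadherin, had sums of 511 and 566 with vehicle, 756 and 682 with acetate, 605 and 561 with etomoxir, 1115 and 914 with etomoxir + acetate, 383 and 490 with etomoxir + SB204990 and 608 and 755 with etomoxir + SB204990 + acetate. Within each set every acetate-treated library was above its partner without acetate. Of this signal 79.1% came from 1 interval at chr9:70830781-70844771 (524 scaled reads), which lies in an intron of Lipc, the hepatic lipase gene, and 61723 bp from the nearest start by the annotation of the table. The start of Adam10 itself was under a different interval, chr9:70677937-70681857 (207 scaled reads), which the table assigned to Mindy2.

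Adam17, the sheddase of tumour necrosis factor and of several epidermal growth factor receptor ligands, had sums of 280.5 and 268 with vehicle, 415 and 344 with acetate, 325 and 315 with etomoxir, 542 and 462 with etomoxir + acetate, 230.2 and 221 with etomoxir + SB204990 and 324 and 409 with etomoxir + SB204990 + acetate. Here too acetate was higher in every same-set pair, and the 2 etomoxir + SB204990 libraries were the lowest. The interval over its promoter, whose sequence is printed above, spanned chr12:21368336-21376984 and held 86.1% of the gene sum (297 scaled reads). The other sheddases had mean sums of 616 for Adam19, 481 for Adam9, 249 for Adam33, 226 for Adam28 and 131 for Adam8.

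Adam22, a non-proteolytic receptor for the secreted neuronal protein LGI1, had low sums of 47.7 and 48.3 with vehicle, 67.6 and 58.6 with acetate, 50.3 and 53.3 with etomoxir, 81 and 66.2 with etomoxir + acetate, 28.3 and 59 with etomoxir + SB204990 and 43.3 and 51.2 with etomoxir + SB204990 + acetate. Only the etomoxir + SB204990 library of set 1 stood well below the others, and the treatments overlapped. Its largest interval was chr5:8140583-8142264, in its own gene body. The other adhesive member, Adam11, had a mean sum of 258.

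Among the sperm and testis ADAMs, Adam30 alone had a high level, with sums of 1363 and 1722 with vehicle, 1955 and 2207 with acetate, 1682 and 1516 with etomoxir, 3006 and 2855 with etomoxir + acetate, 972 and 1673 with etomoxir + SB204990 and 1751 and 2323 with etomoxir + SB204990 + acetate. None of its 11 intervals lay in its own gene body, and 99.3% of the signal lay in another coding gene. Its largest intervals, chr3:98070273-98111766 (967) and chr3:98133641-98153114 (630), both lay within Notch2, so the sum describes chromatin of the Notch2 locus next to Adam30.

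Adam29, a testis ADAM, had sums of 18.7 and 49.9 with vehicle, 33.2 and 49.1 with acetate, 16 and 25.8 with etomoxir, 60 and 33.6 with etomoxir + acetate, 18.7 and 165 with etomoxir + SB204990 and 38.2 and 46.8 with etomoxir + SB204990 + acetate. The etomoxir + SB204990 library of set 2 gave 165 and the next highest value was 60, whereas its partner of set 1 was among the lowest. The 10 intervals named Adam29 were weak (8.17 scaled reads per kb in all), and 9 of them lay in no coding gene. This is the library with most reads in weak intervals, and the part of that in the value was not tested.

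The remaining named genes of this group had a single or a pair of weak intervals. Adam18 had sums of 16.8 and 22.2 with vehicle, 26 and 26.7 with acetate, 40.6 and 20 with etomoxir, 45 and 31.7 with etomoxir + acetate, 18.3 and 38 with etomoxir + SB204990 and 27.2 and 36.4 with etomoxir + SB204990 + acetate. Adam2, which encodes fertilin beta, had sums of 11.2 and 15.1 with vehicle, 15.7 and 11.2 with acetate, 12.6 and 19.5 with etomoxir, 20 and 18.2 with etomoxir + acetate, 8.36 and 22 with etomoxir + SB204990 and 21.3 and 15.6 with etomoxir + SB204990 + acetate, from 1 interval at chr14:66090522-66091362 inside Ephx2. Adam32 had sums of 10.3 and 11.1 with vehicle, 10.9 and 16.4 with acetate, 12 and 4.58 with etomoxir, 23 and 22.1 with etomoxir + acetate, 5.97 and 12 with etomoxir + SB204990 and 14.2 and 12.1 with etomoxir + SB204990 + acetate, from 1 interval at chr8:24961273-24961923 inside Adam9. For Adam18 and Adam2 the treatments overlapped in the plot of gene sums by library, whereas for Adam32 both etomoxir + acetate libraries lay above all others.

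The secreted proteoglycanases were led by Adamts8, which also restrains blood vessel growth, and by Adamts4, an aggrecanase. Adamts8 had sums of 941 and 1084 with vehicle, 1339 and 1396 with acetate, 955 and 906 with etomoxir, 1493 and 1624 with etomoxir + acetate, 539 and 724 with etomoxir + SB204990 and 834 and 1217 with etomoxir + SB204990 + acetate. The 2 etomoxir + SB204990 libraries were the lowest, and the etomoxir + SB204990 + acetate library of set 1 came next. All of this came from 1 interval of 31282 bp over the gene, chr9:30941455-30972736.

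Adamts4 had sums of 633 and 638 with vehicle, 968 and 880.4 with acetate, 677 and 699 with etomoxir, 1053 and 1114 with etomoxir + acetate, 523 and 545 with etomoxir + SB204990 and 767 and 1095 with etomoxir + SB204990 + acetate, from 1 interval, chr1:171244673-171255738. With 72.2 scaled reads per kb it was the densest of all intervals on a start in this family. Within each set every acetate-treated library exceeded every library without acetate.

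Adamts15 and Adamts20, both versican-cleaving enzymes, were at the low end. Adamts15 had sums of 11.7 and 16.6 with vehicle, 22.3 and 18.1 with acetate, 14.9 and 14.3 with etomoxir, 35 and 28.8 with etomoxir + acetate, 6.77 and 22 with etomoxir + SB204990 and 22 and 26.9 with etomoxir + SB204990 + acetate. Adamts20 had sums of 23.8 and 23 with vehicle, 33.8 and 42.2 with acetate, 22.3 and 20.6 with etomoxir, 55 and 45.1 with etomoxir + acetate, 14.3 and 33 with etomoxir + SB204990 and 28.5 and 39 with etomoxir + SB204990 + acetate. In both, the set 1 library with etomoxir + SB204990 was the lowest and etomoxir + acetate of set 1 the highest. Neither had an interval in its own gene body, and the largest ones were chr9:30896314-30897173 and chr15:94216245-94217594, in no coding gene.

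Adamts14, an enzyme that removes the amino-terminal propeptide of procollagens, had sums of 583 and 663 with vehicle, 898 and 834 with acetate, 757 and 692 with etomoxir, 1264 and 1185 with etomoxir + acetate, 492 and 598 with etomoxir + SB204990 and 829 and 1023 with etomoxir + SB204990 + acetate. The values with etomoxir + acetate were the highest, and within each set acetate was always above its partner. The interval over its CpG-rich promoter, chr10:61267679-61283086, held 88.2% of the sum (722 scaled reads). Adamts3, of the same subfamily, had sums of 14 and 19.8 with vehicle, 25.4 and 33.6 with acetate, 28 and 21.2 with etomoxir, 31 and 29.8 with etomoxir + acetate, 15.5 and 29 with etomoxir + SB204990 and 25.2 and 27.8 with etomoxir + SB204990 + acetate and no interval in its gene body, the largest being chr5:90013731-90014487. Its treatments overlapped.

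Adamts6, a secreted protease of the subfamily of Adamts10, had sums of 1106 and 1119 with vehicle, 1683 and 1479 with acetate, 1166 and 1236 with etomoxir, 1928 and 1883 with etomoxir + acetate, 724 and 949 with etomoxir + SB204990 and 1193 and 1620.1 with etomoxir + SB204990 + acetate. All 13 intervals lay in its own gene body, with 287 scaled reads on the start (chr13:104285167-104290032) and 475 in the largest (chr13:104456599-104469951). Within each set the etomoxir + SB204990 value was the lowest.

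The ADAMTS-like genes included the highest sum of the family. Adamtsl4, a secreted protein of fibrillin microfibrils, had sums of 3108 and 3354 with vehicle, 4487 and 4326 with acetate, 3357 and 3256 with etomoxir, 5756 and 5531 with etomoxir + acetate, 2433 and 2651 with etomoxir + SB204990 and 3851 and 5286 with etomoxir + SB204990 + acetate. Of these 99.6% came from 1 interval of 64563 bp, chr3:95640106-95704668, which also covered the start of Mcl1, an apoptosis regulator, so its signal cannot be given to either gene alone. Adamtsl3, a matrix glycoprotein, had sums of 935 and 1032 with vehicle, 1263 and 1317 with acetate, 1077 and 1142 with etomoxir, 1733 and 1668 with etomoxir + acetate, 729 and 916 with etomoxir + SB204990 and 1147 and 1454 with etomoxir + SB204990 + acetate, with 51.9% in an intragenic interval at chr7:82456327-82467977 (624) and only 22.7 scaled reads on its start at chr7:82335160-82336531. Adamtsl5 had sums of 101 and 131 with vehicle, 181 and 183 with acetate, 135 and 126 with etomoxir, 288 and 246 with etomoxir + acetate, 88.8 and 146 with etomoxir + SB204990 and 208 and 212 with etomoxir + SB204990 + acetate, of which 81.8% came from chr10:80345111-80349942. In these 3 genes all same-set pairs were higher with acetate.

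A gene sum by name was therefore not the same as the H3K27ac of the gene. Of the 213 intervals, 117 with 74.3% of the signal lay in the gene body of the member, 40 with 20.6% lay in another coding gene and 56 with 5.06% lay in no coding gene. In 17 of the 43 genes no interval lay in the own gene body, and in 21 more than 50% of the signal lay outside it. Viewed from the genome, 254 intervals lay in the gene bodies of 35 of the 57 coding ADAM and ADAMTS genes of GENCODE, and 117 of these carried the name of the gene.

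**Figure D3:**
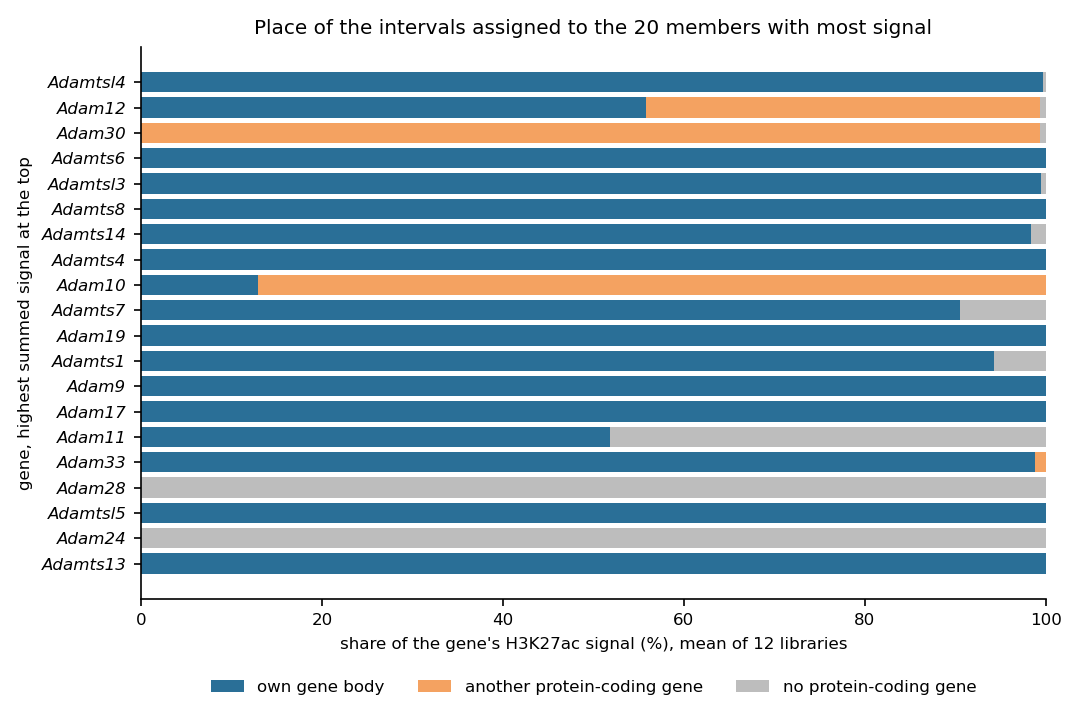
Place of the H3K27ac signal assigned to the 20 members with the highest gene sums (rows), as the percent of the mean gene sum (x axis) that lay in the gene's own body (blue), in another coding gene (orange) or in no coding gene (grey). The bar of Adam30 is orange for 99.3%, that of Adam10 is blue for 13.0%, and Adam24 and Adam28 are wholly grey.

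By coordinates an interval covered a transcription start of 20 of the 57 coding ADAM and ADAMTS genes (35.1%), against 54.9% of all 21840 coding genes. The covered genes were 7 of 9 membrane sheddases, 3 of 5 ADAMTS-like genes, 4 of 7 proteoglycanases and 2 of 20 sperm and testis ADAMs. Also covered were 1 of 3 procollagen N-proteinases, 1 of 2 proteases of cartilage oligomeric matrix protein and 2 of 6 other ADAMTS genes. None of the 4 adhesive ADAMs or Adamts13 was covered. The start interval of 13 genes carried the name of the gene, and that of 7 carried another name (35.0%, against 31.0% for all coding genes). Adam19, a sheddase of neuregulin, had a broad interval of 33750 bp and 1606 scaled reads on its start, chr11:46052405-46086154, which was assigned to Gm12166. Adam8, a sheddase of leukocytes and tumour cells, had one of 31888 bp and 1097 scaled reads under the name 6430531B16Rik. Adam15, a disintegrin with roles in adhesion, had no row of its own, but its start lay under an interval named Efna4 (646 scaled reads). Adam9 was under Tm2d2 (631), Adam1a under Mapkapk5 (344), Adam10 under Mindy2 (207) and Adamts9 under 9530026P05Rik (51.9). The interval given for Adam1a also covered the start of Mapkapk5. It was the stronger of 2 intervals on GENCODE starts of Adam1a, whose RefSeq promoter lay outside it (chr5:121521646-121521945). In 6 of the 20 genes the start interval was 20 kb or longer. Of the 57 coding genes, 14 had no row under their own name.

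Next, the change with acetate was tested, which asks whether the mark at these genes rises when an acetyl-CoA source is added. The test was limma on log2(gene sum + 1), fitted on all 19458 genes with a mean sum of at least 10, and genes with a p under 0.05 after Benjamini-Hochberg adjustment were called. On average over the 3 backgrounds (no inhibitor, etomoxir, and etomoxir + SB204990), 33 of the 40 tested members rose with acetate under spike-in scaling and none fell, where 88.2% of all tested genes were called. The median log2 fold change was 0.63 over the members (range 0.23 to 0.85) and 0.63 over all tested genes, with 20 of the 40 above the latter. Acetate was higher in all 6 same-set pairs for 34 members (85.0%), against 84.2% of all tested genes. Neither the count nor the median set the family apart from this background.

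All 8 membrane sheddases, all 6 proteoglycanases, all 4 other ADAMTS genes, Adamts7 and Adamts13 rose, where 88.2% of all tested genes were called. Of the 8 sheddases 2 lay above the median of 0.63 over all tested genes, and of the 6 proteoglycanases 5 did. Adam10 rose by a log2 fold change of 0.62 ± 0.11 (SE over 12 libraries, as below, with limma adjusted p = 4.7e-05), Adam17 by 0.60 ± 0.12 (limma adjusted p = 0.00010) and Adam12 by 0.56 ± 0.11 (limma adjusted p = 6.4e-05). Adamts14 and Adamts2 rose among the procollagen N-proteinases, and Adamts3 had 0.46 (limma adjusted p = 0.098). The highest values were 0.85 ± 0.15 for Adamtsl5 (limma adjusted p = 3.2e-05, 1.04 in set 1 and 0.66 in set 2), 0.83 ± 0.30 for Adamts15 (0.014) and 0.81 ± 0.25 for Adamts20 (0.0044), the latter a pair of genes with low sums.

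The 7 members that were not called were Adam2, Adam3, Adam18, Adam22, Adam29, Adamts3 and Adamtsl2, and 4 of them are sperm and testis ADAMs. Adam2 had 0.23 ± 0.32 (limma adjusted p = 0.49), with 0.78 in set 1 and -0.32 in set 2. Adam18 had 0.35 ± 0.27 (limma adjusted p = 0.21) and Adam22 0.36 ± 0.21 (limma adjusted p = 0.10). Adam29 had 1.21 in set 1 and -0.48 in set 2. Without the set 2 library of etomoxir + SB204990, 39 of the 40 members rose, where 98.5% of all tested genes were called, which included 6 of these 7 but not Adam2 (0.45, limma adjusted p = 0.090). All 7 had a mean sum of at most 54.6 scaled reads, and a p above the threshold does not show that they were unchanged. The calls also depended on the scaling: under median-of-ratios scaling, which centres each library on its median ratio to all genes, 0 of the 40 were called in limma and 2 had an unadjusted p under 0.05, where 0.0719% of all tested genes were called. The members then lay between -0.37 and 0.23 with a median of 0.00345. The median of all tested genes moved likewise, from 0.63 to -0.00187, and 21 of the 40 members stayed above 0, while Adam12, Adamtsl3, Adamts8, Adam10 and Adam17 were among those that turned negative. Such centring removes a change shared by most genes, so it cannot show whether a shared change took place.

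**Figure D4:**
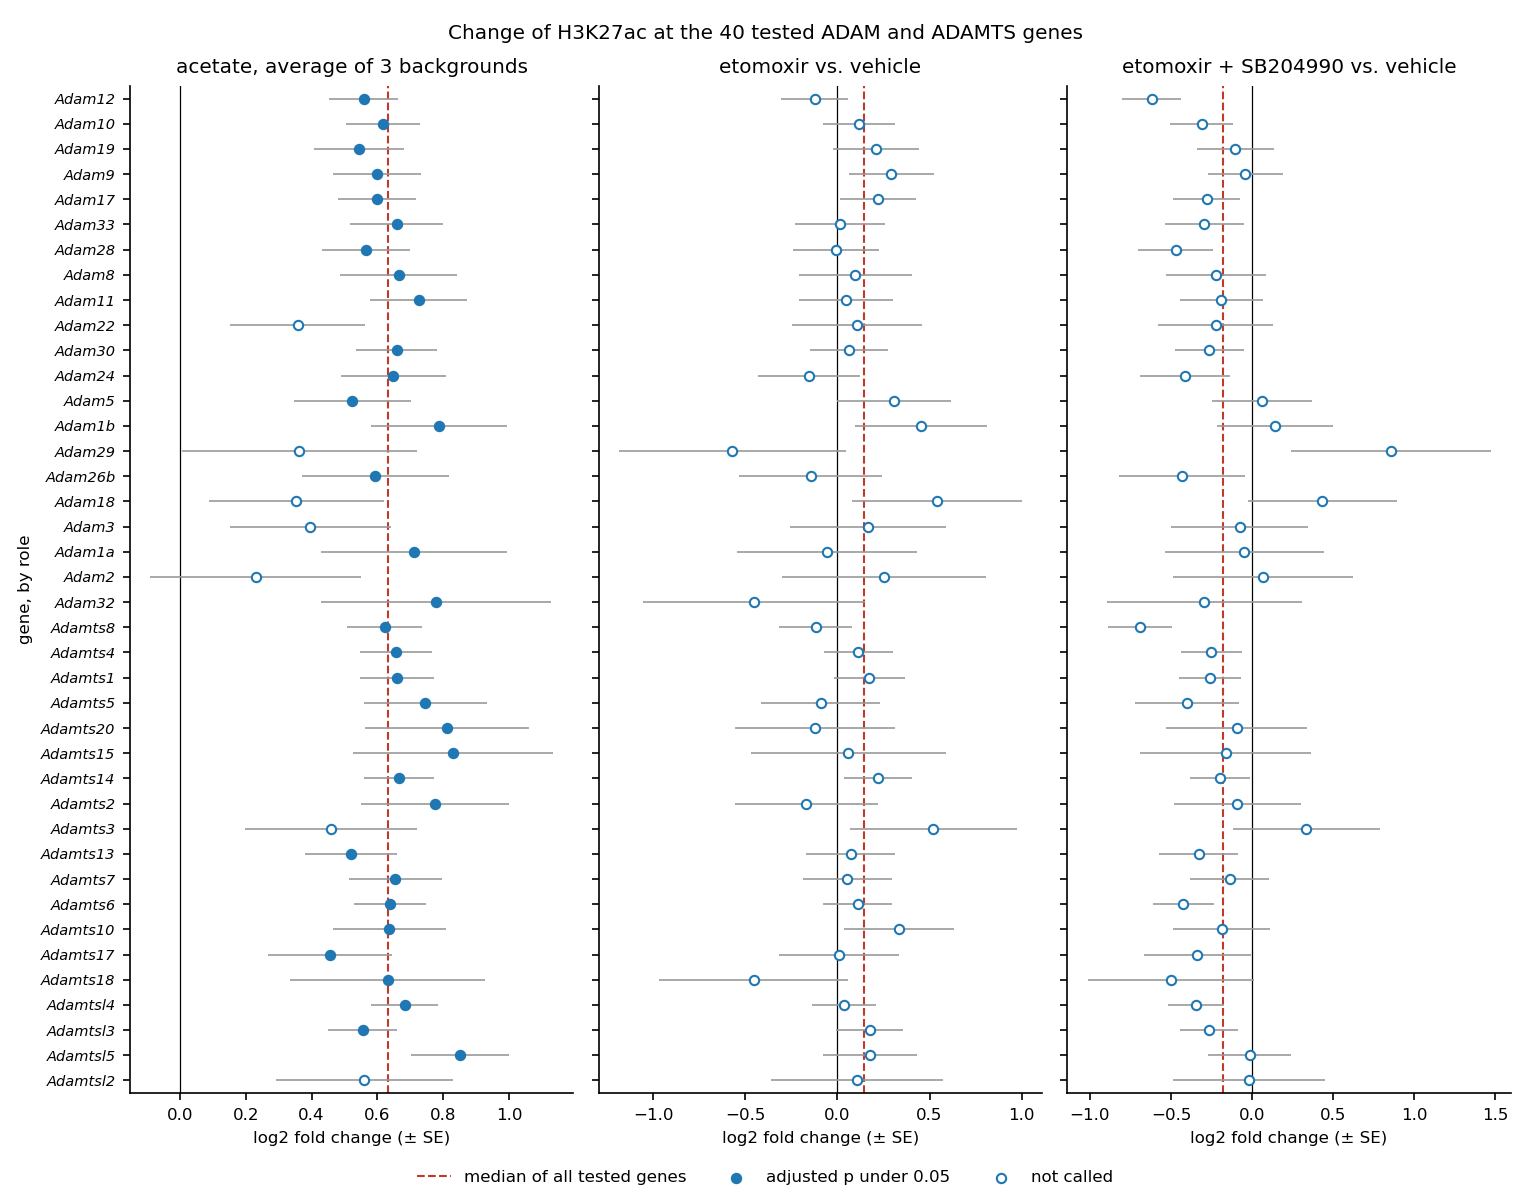
Log2 fold change (x axis, points, with SE as bars) of H3K27ac at the 40 tested members (rows) for acetate averaged over the 3 backgrounds, etomoxir vs. vehicle and etomoxir + SB204990 vs. vehicle (panels), with filled points for adjusted p under 0.05 and a dashed line at the median of all tested genes. With acetate 33 points are filled and scatter around the dashed line at 0.63 (0 are called under median-of-ratios scaling), and no point is filled in the other 2 panels.

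At the level of single intervals 116 of the 213 had a mean of at least 10 scaled reads and were tested. With acetate 79 of them rose and 0 fell, where 77.2% of all tested intervals were called, and among the 44 with a mean of at least 50 all rose, where 99.1% of all such intervals were called. The intervals with the largest changes among those were the Adamtsl5 interval at chr10:80345111-80349942 (0.87), an Adam30 interval inside Notch2 at chr3:98123804-98126873 (0.85) and an Adam10 interval inside Lipc at chr9:70845595-70849058 (0.81). Of the 20 start intervals found by coordinates, 19 rose, by 0.53 to 0.87 on the log2 scale, and the one not called was that of Adam3 (0.40, limma adjusted p = 0.11). Over the start intervals of all coding genes 97.6% were called, and under median-of-ratios scaling 0 of the 20 were. The values under spike-in scaling at starts assigned to neighbours were 0.67 at the start of Adam19, 0.62 at Adam10, 0.55 at Adam8, 0.54 at Adam9, 0.83 at Adam15, 0.66 at the Adam1a interval shared with the start of Mapkapk5, and 0.53 at Adamts9. Those of Adam8, Adam9, Adam10 and Adamts9 were negative under median-of-ratios scaling (-0.10, -0.12, -0.04 and -0.11).

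The single backgrounds differed in the number of calls. Without inhibitor, acetate vs. vehicle gave 0 calls among the 40 members in limma and in edgeR, with 14 at an unadjusted p under 0.05, and 0% of all tested genes were called in limma although 8341 had an unadjusted p under 0.05. DESeq2 called 5 members, where 19.1% of all tested genes were called, and limma with the set as a replicate block called 5, where 20% were. The median was 0.44 against 0.48 over all genes. With etomoxir, 26 members rose on addition of acetate, against 78.2% of all tested genes, with medians of 0.76 and 0.79. With etomoxir + SB204990, 20 rose, against 57.7%, with medians of 0.65 and 0.64. Under median-of-ratios scaling 0 members were called in either comparison, with medians of -0.0191 and 0.0107. Both counts also fell when some single libraries were left out, as given under the processing below. The count with etomoxir + SB204990 fell to 0 when fitted on its own 4 libraries. Without the set 2 library of etomoxir + SB204990, 35 members rose in the latter comparison, where 91.4% of all tested genes were called (Adam29 among them with 1.13, limma adjusted p = 0.0042), and 20 rose in acetate vs. vehicle, where 61.2% were. Without the set 1 library of that treatment, 6 rose and Adam29 was called in the opposite direction in the latter comparison (log2 fold change -1.94), where 23.3% of all tested genes were called, and again 20 rose in acetate vs. vehicle, where 61.1% were. With 1 library of that treatment left, the fit assumes that it varies like the libraries of the other treatments. Whether the change with acetate differed between backgrounds was tested by the interactions, and 0 members were called in limma, edgeR or DESeq2 for etomoxir or for etomoxir + SB204990, with 0 at an unadjusted p under 0.05 in both and 0% of all tested genes called in each.

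The inhibitors alone were then compared with vehicle, to ask whether blocking acetyl-CoA sources lowers the mark at these genes. For etomoxir vs. vehicle 0 of the 40 members were called in limma, edgeR or DESeq2, with 0 at an unadjusted p under 0.05, where 0.0154% of all tested genes were called. The highest log2 fold changes were 0.54 for Adam18 and 0.52 for Adamts3, and the lowest were -0.57 for Adam29 and -0.46 for Adam32, all with limma adjusted p = 0.99.

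For etomoxir + SB204990 vs. vehicle 0 members were called in limma, edgeR or DESeq2 as well, where 0.00514% of all tested genes were called, and 3 had an unadjusted p under 0.05, all negative. Adamts8 had -0.69 ± 0.20 (limma adjusted p = 0.78), with -0.80 in set 1 and -0.58 in set 2. Adam12 had -0.62 ± 0.18 (limma adjusted p = 0.78), with -0.75 and -0.48. Adamts6 was the third. The median was -0.22 over the members and -0.18 over all tested genes. With reads first turned into shares of their library and then multiplied by the spike-in factor, these medians were 0.05 and 0.093. At the other end, Adam29 had 0.85, from 0.00 in set 1 and 1.71 in set 2, and Adam18 had 0.43.

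The calls in this comparison changed with the library left out. Without the set 2 library of etomoxir + SB204990, 10 members fell, where 12.3% of all tested genes were called, and they included Adamts8 (-0.90, limma adjusted p = 0.0038), Adam12 (-0.77, limma adjusted p = 0.015), Adam8 (-0.79), Adam28 (-0.68) and Adamts6 (-0.62). These p-values take the spread from the other treatments, since the lone library of this one is assumed to vary like them. All 8 intervals named Adam8 lay in another coding gene. The interval on the start of Adam8 had -0.35 in set 1 and -0.10 in set 2 for etomoxir + SB204990 vs. vehicle. Without the set 1 library of the same treatment, none of these was called and Adam29 was called higher (2.39), where 5.61% of all tested genes were called. Under median-of-ratios scaling with all libraries 0 members were called and 4 had an unadjusted p under 0.05, where 0.339% of all tested genes were called, and Adamts8 came nearest with -0.51 (limma adjusted p = 0.053).

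Because the spike-in factors move all genes of a library together, the weight of each gene within its library was also examined, as the percent of the scaled signal of that library. The 43 genes together held 0.212 to 0.217% in the 4 libraries without etomoxir and 0.201 to 0.207% in the 8 libraries with it, so the groups did not overlap. This separation was carried by Adam12 and Adamts8, since without them the other members held 0.169 to 0.171% and 0.166 to 0.171%, which overlap. Adamts8 held, in percent, 0.0138 and 0.0141 with vehicle, 0.0133 and 0.014 with acetate, 0.0119 and 0.0115 with etomoxir, 0.0109 and 0.0126 with etomoxir + acetate, 0.0101 and 0.0101 with etomoxir + SB204990 and 0.00971 and 0.0108 with etomoxir + SB204990 + acetate. Adam12 held 0.0333 and 0.0303 with vehicle, 0.0322 and 0.0273 with acetate, 0.0272 and 0.0261 with etomoxir, 0.0252 and 0.0244 with etomoxir + acetate, 0.0252 and 0.0232 with etomoxir + SB204990 and 0.0237 and 0.0246 with etomoxir + SB204990 + acetate. Every library with etomoxir was thus below every library without it in both genes, for Adam12 by a narrow margin (highest 0.0272%, lowest 0.0273%).

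The same separation was found for Adam28, a sheddase expressed in lymphocytes and carcinomas, with 0.00221 to 0.00258% with etomoxir and 0.00261 to 0.00283% without it. All of the Adam28 signal lay in no coding gene, most of it in chr14:68741990-68747559 (154 scaled reads). In all, 3 of the 40 tested members were lower in every etomoxir library (7.50%), where 1.23% of all tested genes were, and 0 were higher in every one, where 1.59% of all tested genes were. The 8 libraries with etomoxir include those that also had SB204990 or acetate. Adamtsl4, shown beside these genes in the plot of shares, overlapped between the groups.

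**Figure D5:**
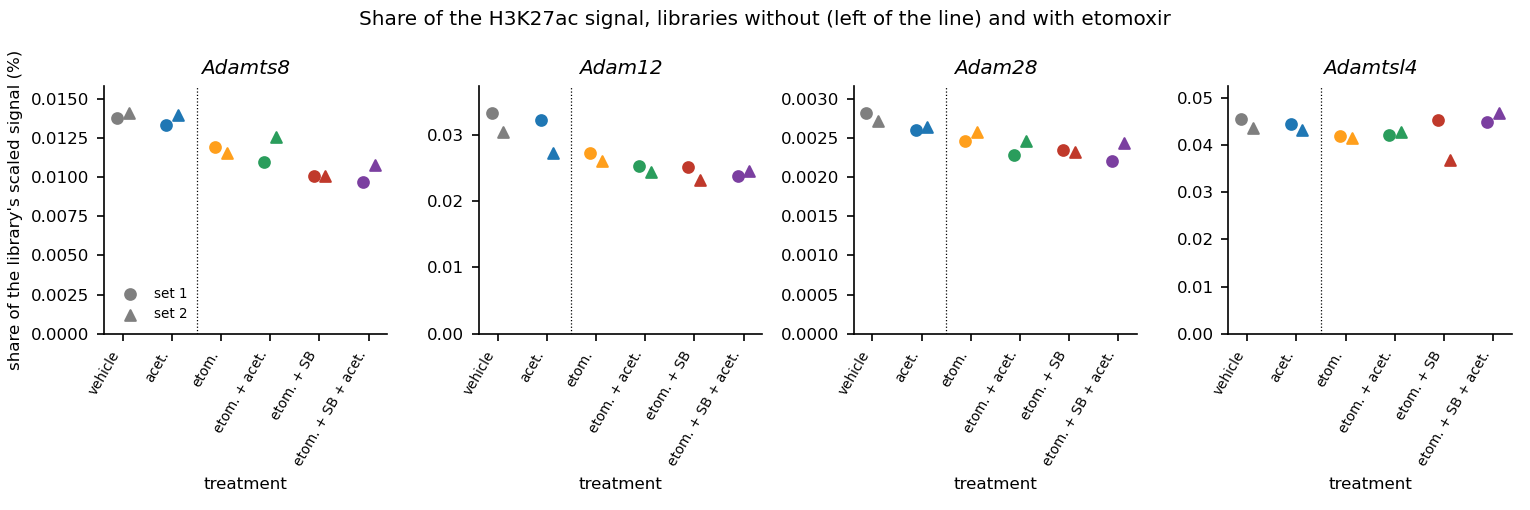
Share of each library's scaled H3K27ac signal (y axis, percent) held by Adamts8, Adam12, Adam28 and Adamtsl4 (panels) in each treatment (x axis), with circles for set 1, triangles for set 2 and a dotted line between libraries without etomoxir (left) and with it (right). For Adamts8 the 4 points at the left lie at 0.0133 to 0.0141% and the 8 at the right at 0.00971 to 0.0126%, while Adamtsl4 overlaps across the line.

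A contrast of the 4 treatments with etomoxir against vehicle and acetate, added after these values were seen, was fitted under median-of-ratios scaling. Of the 40 members, 1 was called, Adamts8, which was lower (log2 fold change -0.36 ± 0.056, limma adjusted p = 0.011), where 1.28% of all tested genes were called. This call was not made in the fit over single intervals, where the 1 interval of Adamts8 had -0.40 (limma adjusted p = 0.19) and 0.311% of all tested intervals were called. Adam12 had -0.32 ± 0.071 (limma adjusted p = 0.060). The interval on the start of Adam12 was not called either under this scaling (-0.37, limma adjusted p = 0.43). Of the Adam12 gene sum 43.5% lay in another coding gene. Under total-sum scaling both genes were called lower, Adamts8 with -0.34 (limma adjusted p = 0.0053) and Adam12 with -0.30 (limma adjusted p = 0.013), where 1.68% of all tested genes were called. With a replicate block under median-of-ratios scaling both were called as well (limma adjusted p = 0.014 and 0.033), where 1.42% were. With each of the 12 libraries left out in turn, Adamts8 lay between -0.39 and -0.33 and was called in 8, with limma adjusted p from 0.0011 to 0.081. Adam12 lay between -0.40 and -0.25 and was called in 3. The call of Adamts8 was lost without any 1 of the vehicle or acetate libraries. Under spike-in scaling 0 members were called in limma, edgeR or DESeq2 in this contrast and 1 had an unadjusted p under 0.05.

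Genes that act with the family were described from lists of 58 genes, of which 51 had an interval and 47 were tested. With acetate 43 of the 47 rose and 0 fell, where 88.2% of all tested genes were called, with a median of 0.67 against 0.63 over all tested genes, and 0 were called after median-of-ratios scaling. All 4 tested inhibitors rose, among them Timp3, the main tissue inhibitor of ADAM17 and aggrecanases (0.87), and Reck, a membrane-anchored inhibitor (0.86). All 8 tested partners of ADAM10 and ADAM17 rose, among them Rhbdf2, the iRhom that brings ADAM17 to the cell surface (0.73), and Tspan14, a tetraspanin that escorts ADAM10 (0.53, but -0.11 under median-of-ratios scaling). Of 4 proprotein convertases, which activate these enzymes, only Pcsk7 had an interval under its name and it rose (0.70). Of the shed substrates 22 of 24 rose, among them Tnf (0.90), Notch2 (0.68) and Cdh1 (0.72), while Ereg (0.47) and Egf (0.32) were not called. Of the matrix substrates 8 of 10 rose, among them Col1a1 (0.89) and Vcan (0.52, but -0.12 under median-of-ratios scaling), while Bcan (0.37) and Col3a1 (0.22) were not called. For etomoxir vs. vehicle and for etomoxir + SB204990 vs. vehicle 0 of the 47 were called in limma, where 0.0154% and 0.00514% of all tested genes were called. At an unadjusted p under 0.05 were 0 and 8 of the 47.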

How the data were processed

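H3K27ac ChIP-seq of 12 libraries of 4T1 cells was analysed from 1 table of signal values. Per the methods of the study, the authors ran the nf-core ChIP-seq workflow on a merged human and mouse genome (GRCh38 and GRCm38/mm10) and computed scaling factors from the human spike-in. The deposited values behaved as reads multiplied by such a factor, so they were taken as scaled signal and not counts. The submitters' processing notes name deepTools without a version, which the methods of the study do give. The factor was 1 in 2 libraries, one of set 1 and one of set 2, and in all 12 libraries 100% of values came out as whole reads within 0.02 reads, so reads and factors (0.398 to 1) were recovered from the values. Signal was summed per gene symbol, log2(sum + 1) was formed for genes with a mean of at least 10, and limma (version 3.58.1, R 4.3.3) with an intensity trend was fitted to 6 group means over the 12 libraries. Adjusted p-values are Benjamini-Hochberg over all 19458 tested genes, and a fold change on this scale understates the change of low genes. Alternatives were median-of-ratios and total-sum scaling, spike-scaled shares of reads, a pseudocount of 10, other filters, intervals within 10 kb of a start or on the gene body, a replicate block, leaving out each library, and edgeR (version 4.0.16, quasi-likelihood) and DESeq2 (version 1.42.0) on the recovered reads. Gene bodies and starts are from GENCODE vM21 (GRCm38). The fits were tested on simulated data. No input library was used here. Members, role lists and pathway lists were chosen with earlier results of these data known. Values per library are given for the 8 members with the highest sums, Adam10, Adam17, the 3 highest and 3 lowest changes with acetate and the 2 highest and 2 lowest changes with each inhibitor treatment. Adam28 and neighbouring genes are named after their values were seen.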

Additional observations from a re-analysis of the deposited data

How the results depend on the processing

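The 33 members that rose on average with acetate became 0 under median-of-ratios scaling, total-sum scaling, spike-scaled shares of reads, and median-of-ratios scaling with a replicate block, and 21 of 24 tested with only intervals within 10 kb of a start, where 92.2% of all tested genes were called. The 26 calls for etomoxir + acetate vs. etomoxir became 0 under those 4 settings and 17 of 24 within 10 kb (80.3% of all tested genes). The 20 calls for etomoxir + SB204990 + acetate vs. etomoxir + SB204990 became 0 under those 4 settings and when fitted on its own 4 libraries, and 13 of 24 within 10 kb (59.7%). Median-of-ratios and total-sum scaling remove a change shared by most genes. Spike-scaled shares of reads keep the spike-in factor, and the median of the members for average acetate was then 0.43. For acetate vs. vehicle, 0 calls became 20 when fitted on its own 4 libraries (61.5% of all tested genes), 5 with the replicate block (20%), 5 with DESeq2 (19.1%) and 16 of 33 tested with intervals on the gene body or 1 kb upstream (52.4%), a setting added after seeing the data. For etomoxir + SB204990 vs. vehicle 1, Adamts8, was called under total-sum scaling, where 0.488% of all tested genes were. Of the member intervals, 79 called became 0 under median-of-ratios scaling and 44 with a mean of at least 50, where 44 were tested. With each library left out in turn, calls ranged from 28 to 39 for average acetate (81.2 to 98.5% of all tested genes), 0 to 20 for acetate vs. vehicle (0 to 61.2%), 8 to 35 for etomoxir + acetate vs. etomoxir (28.8 to 92.2%), 0 to 35 for etomoxir + SB204990 + acetate vs. etomoxir + SB204990 (0 to 91.4%), 0 to 10 for etomoxir + SB204990 vs. vehicle (0 to 12.3%) and 0 to 1 for the interaction with etomoxir + SB204990 (0 to 3.37%). The direction of Adam29 turned with the library left out for etomoxir + SB204990 + acetate vs. etomoxir + SB204990. The 8 came without the set 1 library of etomoxir + acetate, the 0 of 20 without the set 2 library of etomoxir + SB204990 + acetate, and 12 of 26 without the set 2 library of etomoxir. Acetate vs. vehicle gave 20 without either etomoxir + SB204990 library and 5 without either etomoxir + SB204990 + acetate library. The cause of these shifts was not tested, apart from the fewer genes or libraries that some settings hold.

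The mean log2 change with acetate turned negative under median-of-ratios scaling, total-sum scaling and median-of-ratios scaling with a replicate block for Adam12 (-0.0806, -0.0682 and -0.0806), Adamtsl3 (-0.0824, -0.0701 and -0.0824), Adamts8 (-0.0156, -0.00326 and -0.0156), Adam10 (-0.0204, -0.00808 and -0.0204) and Adam17 (-0.0386, -0.0263 and -0.0386). Of 15 pairs of libraries with the same set number 4 correlated above 0.1 in their deviations (range -0.22 to 0.60), so some deviated together but not all, and the set number was not used as a pairing. The deviations were differences of set 1 minus set 2, centred on their median in each treatment. Shifts of a whole library between the sets could therefore not be seen in them. The replicate block moved calls by over 1.5 times for acetate vs. vehicle (above), for the average of the etomoxir treatments under median-of-ratios scaling (1 to 2) and for member intervals in etomoxir + SB204990 vs. vehicle (0 to 1, with 0.144% of all tested intervals). Smaller moves were 33 to 34 for average acetate (90.3% of all tested genes with the block), 26 to 30 for acetate on etomoxir (83.1%), 20 to 23 for acetate on etomoxir + SB204990 (65%) and 79 to 88 for member intervals with acetate (81.2% of all tested intervals). The number of libraries, 2 per treatment, and sums near 10 scaled reads for the weakest members limit the precision.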

Other observations

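Some ADAM and ADAMTS gene bodies held H3K27ac that the gene sums do not contain, because the intervals carry other names. Adamts16, a protease known from kidney and gonad, had no row of its own, but 14 intervals with 579 scaled reads lay in its gene body, 8 of them with 318 assigned to Gm36607. Adamts2, a procollagen N-proteinase with a CpG-rich promoter under no interval, had 1 interval of 276 scaled reads in its body, assigned to Gm12199, against a gene sum by name of 37.2. Adam19 had 2385 scaled reads in its body, of which 25.8% carried its name. Of the 35 coding genes of the family with an interval in the body, 22 had most of that signal under their own name and 9 had none under it.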
